A study of Mus musculus with 3 samples.

Results

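The 10 genes described here, *Gp6*, *Clec1b*, *Fcer1g*, *Lyn*, *Fyn*, *Syk*, *Btk*, *Lcp2*, *Vav1* and *Plcg2*, encode the core of the pathway by which platelets respond to collagen and podoplanin. They were chosen from 22367 protein-coding genes by a rule that names them by their roles and uses no read count. They were examined for FLI1 and RUNX1 occupancy in mature mouse megakaryocytes (MK), the cells that release platelets. Reads were counted within 2 kb of each transcription start site (TSS) and in consecutive 400-bp bins over each gene body and the 20 kb on either side of it, here called the territory of the gene. All 10 genes were found in the annotation, with *Syk* listed under the older symbol Sykb.

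In platelets, the collagen receptor GPVI, encoded by *Gp6*, signals through an immunoreceptor tyrosine-based activation motif (ITAM) that it lacks itself and borrows from the Fc receptor gamma chain, encoded by *Fcer1g*. The podoplanin receptor CLEC-2, encoded by *Clec1b*, carries a related single-tyrosine motif in its own tail. Src-family kinases such as LYN and FYN phosphorylate the motif of the gamma chain, and the kinase SYK docks on both kinds of motif. The signal passes through the adaptor SLP-76 (*Lcp2*), the exchange factor VAV1 and the kinase BTK to the phospholipase encoded by *Plcg2*, which releases calcium.

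The data are 3 ChIP-seq libraries of MK grown for 5 days from livers of wild-type CD1 mouse fetuses, labeled embryonic day 15: 1 with FLI1 antibody, 1 with RUNX1 antibody and 1 of input chromatin. Each library was pooled from at least 3 preparations, so there are no replicates and no test between libraries was made. All intervals are exact 95% intervals that cover counting error only. The methods give an earlier embryonic day, and they describe nuclease digestion for the input and sonication for the transcription factor (TF) precipitates, whereas the labels describe sonication, so the effect of shearing cannot be told apart from that of the antibody.

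The depths were unequal, with 62946422 FLI1, 3973856 RUNX1 and 21745220 input reads on the nuclear chromosomes. The study lists many times more RUNX1 tags than the deposited file holds, so the limits on RUNX1 given here are those of the file. A 400-bp bin held on average 10.6 FLI1, 0.668 RUNX1 and 3.66 input reads, so single RUNX1 reads weigh heavily in every value below. As a check of the cell type, FLI1 was at 2-fold or more over input at the TSS of 7 of 10 MK marker genes, 1 of 5 erythroid, 1 of 5 granulocyte and macrophage, 0 of 5 lymphoid and 0 of 5 hepatocyte markers. RUNX1 was at that level at 1 of 10 MK markers and at 0 of the other 20. Of all protein-coding genes, 23.1% were at that level for FLI1 and 14.7% for RUNX1. These are counts of occupancy and do not measure expression, and their part in the results was not tested.

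In 8 of the 9 members with a FLI1 site, the strongest one lay away from the gene's own promoter, here the 2 kb on either side of any protein-coding transcript start. A site is a run of adjacent bins with FLI1 at 4-fold or more over the reference, which is the higher of the input in the bin and the mean input per bin. The sequences that follow are the 121 bp around the FLI1 summit at the strongest sites of 5 signaling genes and at the second site of *Plcg2*, read from mm9 5′ to 3′ on the strand of the gene. Capitals mark ETS words (CCGGAA or CAGGAA, the kind of sequence FLI1 recognizes), RUNX words (TGTGGT or TGCGGT) and GATA words (AGATAA), each on either strand. They are shown because these sites are among those with the most FLI1 reads in the set and differ in which words they carry.
Vav1 intron, chr17:57429825-57429945, plus strand: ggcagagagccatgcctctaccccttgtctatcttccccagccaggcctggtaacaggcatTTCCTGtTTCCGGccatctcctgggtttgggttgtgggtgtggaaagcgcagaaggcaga
Plcg2 intron, first site, chr8:120072476-120072596, plus strand: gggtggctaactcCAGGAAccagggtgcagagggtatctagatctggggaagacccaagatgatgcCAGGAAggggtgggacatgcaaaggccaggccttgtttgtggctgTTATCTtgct
Plcg2 intron, second site, chr8:120067785-120067905, plus strand: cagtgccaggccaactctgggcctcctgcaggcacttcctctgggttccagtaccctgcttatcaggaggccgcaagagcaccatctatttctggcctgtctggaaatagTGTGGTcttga
Lcp2 intron, chr11:33964179-33964299, plus strand: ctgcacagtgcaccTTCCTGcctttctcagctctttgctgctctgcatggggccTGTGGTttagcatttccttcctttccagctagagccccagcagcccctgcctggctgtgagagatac
Syk upstream, chr13:52672844-52672964, plus strand: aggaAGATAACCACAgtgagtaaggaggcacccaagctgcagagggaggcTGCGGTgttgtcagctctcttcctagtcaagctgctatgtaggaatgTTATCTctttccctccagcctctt
Lyn upstream, chr4:3587246-3587366, plus strand: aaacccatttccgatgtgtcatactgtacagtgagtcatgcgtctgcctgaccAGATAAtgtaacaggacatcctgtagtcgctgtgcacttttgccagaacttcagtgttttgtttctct
The *Vav1* summit carries a pair of ETS words a single base apart, and the *Lcp2* summit carries an ETS and a RUNX word. The second *Plcg2* site has a RUNX word near its edge and no ETS word of these spellings. The *Syk* site has RUNX and GATA words, with one of each overlapping at its start, and the *Lyn* site has a GATA word alone. A word is a match of letters, and its absence says nothing about the factor.

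For the receptor genes the sequences of interest are the 120 bp just before the TSS, because FLI1 reads exceeded input there in all 3, together with the intronic site of *Fcer1g*.
Gp6 promoter, chr7:4349347-4349466, minus strand: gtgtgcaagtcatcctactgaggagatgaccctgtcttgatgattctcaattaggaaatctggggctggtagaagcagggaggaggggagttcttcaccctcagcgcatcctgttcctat
Clec1b promoter, chr6:129347195-129347314, plus strand: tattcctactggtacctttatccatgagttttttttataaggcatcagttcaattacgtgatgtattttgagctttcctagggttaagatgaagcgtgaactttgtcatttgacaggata
Fcer1g promoter, chr1:173164497-173164616, minus strand: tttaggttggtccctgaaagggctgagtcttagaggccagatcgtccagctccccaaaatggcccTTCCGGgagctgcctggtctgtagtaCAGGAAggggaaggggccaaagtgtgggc
Fcer1g intron, chr1:173162145-173162265, minus strand: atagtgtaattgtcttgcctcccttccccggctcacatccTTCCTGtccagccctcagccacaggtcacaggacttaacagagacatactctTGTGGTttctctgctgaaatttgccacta
The *Fcer1g* promoter holds 2 ETS words, while those of *Gp6* and *Clec1b* hold none of the marked words, although both hold the shorter spelling AGGAA. The FLI1 summit at the *Clec1b* TSS, 17 bp downstream of it, has 1 ETS and 1 GATA word within 50 bp. For comparison, 41.4% of all protein-coding promoters (250 bp before to 50 bp after the TSS, a longer window) held an ETS word, 21.6% a RUNX word and 10.3% a GATA word.

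FLI1 within 2 kb of the TSS ran from 1.41-fold over input at *Lcp2* to 3.14-fold at *Syk*. A total of 4 of 10 members, *Syk*, *Lyn*, *Fyn* and *Plcg2*, reached 2-fold over input in this window, where 23.1% of all protein-coding genes did. The median fold was 1.91 for the members and 1.23 for all genes. RUNX1 reached 2-fold at 1 of 10, *Syk*, against 14.7% of all genes, and the medians were 1.33 and 1.15. Folds are ratios of read counts scaled to library depth (reads per 1000000 library reads, RPM) after adding 0.1 RPM to each, and the intervals beside them are those of the ratio without this addition. With 1 library per antibody these counts have no replicate check. Against their own flanks from 2 to 20 kb in place of input, *Lyn*, *Syk* and *Plcg2* fell below 2-fold for FLI1, at 1.63, 1.34 and 1.05, and 2 of 10 members, *Fyn* and *Gp6*, were at that level, beside 20.5% of all genes.

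*Gp6* (chr7:4320315-4349346, minus strand) held 254 FLI1, 8 RUNX1 and 45 input reads within 2 kb of its TSS, or 4.04, 2.01 and 2.07 RPM. FLI1 was therefore 1.91-fold over input (interval 1.42 to 2.74), above 74.6% of genes, and RUNX1 was level with input at 0.97-fold (0.396 to 2.09). *Gp6* stood out from its own surroundings: FLI1 in this window was 3.61-fold over the flanks from 2 to 20 kb, against a median of 1.25 for all genes, but the input was also 1.93-fold over the same flanks, which include stretches nearly empty of reads in all 3 libraries. The input part was high in the narrow window too, with 127 FLI1, 2 RUNX1 and 11 input reads within 200 bp of the TSS, and 98.4% of genes had fewer input reads there. Its contribution to the FLI1 signal was not tested.

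*Clec1b* (chr6:129347315-129359353, plus strand) held 177 FLI1, 8 RUNX1 and 34 input reads, or 2.81, 2.01 and 1.56 RPM. FLI1 was 1.75-fold over input (1.24 to 2.68) and RUNX1 1.27-fold (0.515 to 2.83). Its reads were concentrated at the start, where 47 FLI1, 2 RUNX1 and 2 input reads lay within 200 bp, a ratio of FLI1 to input of 8.12 (2.13 to 69.0).

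*Fcer1g* (chr1:173159703-173164496, minus strand), the signaling chain that GPVI needs, held 277 FLI1, 14 RUNX1 and 49 input reads, or 4.40, 3.52 and 2.25 RPM. FLI1 was 1.91-fold over input (1.44 to 2.70), the same level as at its partner *Gp6*, and RUNX1 1.54-fold (0.797 to 2.88). Within 200 bp of the TSS it held 107 FLI1, 3 RUNX1 and 3 input reads, without the input excess seen at *Gp6*.

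The Src-family kinase genes followed *Syk* in the order. *Lyn* (chr4:3605262-3740269, plus strand) held 305 FLI1, 11 RUNX1 and 38 input reads, or 4.85, 2.77 and 1.75 RPM, so that FLI1 was 2.68-fold over input (1.97 to 3.99) and RUNX1 1.55-fold (0.73 to 3.16). *Fyn* (chr10:39088661-39285187, plus strand) held 346 FLI1, 12 RUNX1 and 45 input reads, or 5.50, 3.02 and 2.07 RPM, the most FLI1 of any member. Its FLI1 fold was 2.58 (1.94 to 3.71) and its RUNX1 fold 1.44 (0.703 to 2.80). Start sites of other *Fyn* transcripts less than 1 kb downstream had 410 or 411 FLI1 reads and 3.49- to 3.59-fold FLI1, with RUNX1 at 1.91-fold on 14 reads or 2.10-fold on 15. Farther into *Fyn*, FLI1 was at 2.27-fold (1.62 to 3.56) on 212 reads at the start 51154 bp downstream, and at 0.96- and 0.852-fold at those 85950 and 142884 bp downstream.

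*Syk* (chr13:52678542-52744161, plus strand), the kinase that docks on the phosphorylated motifs, had the highest fold over input for both TFs within 2 kb of the 5′ end of each gene. It held 323 FLI1, 16 RUNX1 and 34 input reads, or 5.13, 4.03 and 1.56 RPM. FLI1 was 3.14-fold over input (2.30 to 4.82), above 93.3% of genes, and RUNX1 2.48-fold (1.33 to 4.79), above 93.0% of genes. In the 2-kb window at the TSS of each gene, *Syk* was the only member whose RUNX1 interval excluded 1. The interval at the downstream *Fyn* starts with 15 RUNX1 reads also did, at 1.10 to 4.02. The input was low in this window, at 0.711-fold of its own flanks, where FLI1 was 1.34-fold over them. Other *Syk* transcripts start 264 and 13680 bp downstream. FLI1 was at 4.19-fold and RUNX1 at 2.95-fold at the nearer start. At the farther start FLI1 was at 1.48-fold (1.12 to 2.03) and RUNX1 at 0.946-fold (0.430 to 1.86).

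*Btk* (chrX:131076875-131118109, minus strand), the Tec-family kinase of the pathway, held 213 FLI1, 10 RUNX1 and 39 input reads, or 3.38, 2.52 and 1.79 RPM, with FLI1 at 1.84-fold (1.34 to 2.73) and RUNX1 at 1.38-fold (0.625 to 2.86). This window is centered on the 5′ end of the gene and reaches the edge of a FLI1 site at the neighbor *Rpl36a*, whose part was not tested. The protein-coding transcripts of *Btk* start 430 and 442 bp downstream. At these starts FLI1 was at 1.54-fold, on 190 and 191 reads, and RUNX1 at 1.16-fold. *Lcp2* (chr11:33946920-33992295, plus strand) held 255 FLI1, 10 RUNX1 and 62 input reads, or 4.05, 2.52 and 2.85 RPM. Its FLI1 fold of 1.41 (1.07 to 1.91) was the lowest of the set, beside the highest input, and its RUNX1 fold was 0.887 (0.403 to 1.73).

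*Vav1* (chr17:57418523-57468659, plus strand) held 287 FLI1, 11 RUNX1 and 53 input reads, or 4.56, 2.77 and 2.44 RPM, with FLI1 at 1.84-fold (1.39 to 2.56) and RUNX1 at 1.13-fold (0.535 to 2.20). *Plcg2* (chr8:120022191-120159040, plus strand) held the fewest reads, 167 FLI1, 4 RUNX1 and 22 input, or 2.65, 1.01 and 1.01 RPM. Its FLI1 fold of 2.48 (1.68 to 4.30) stood beside a low input, with FLI1 at 1.05-fold and input at 0.497-fold of their own flanks, and RUNX1 was level with input at 0.995-fold (0.249 to 2.93). At the *Plcg2* TSS itself there was little of any library, with 17 FLI1, 0 RUNX1 and 2 input reads within 200 bp, where the median gene had 16, 1 and 3.

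Close to the start sites most members had a clear excess of FLI1. Within 200 bp of the TSS the median protein-coding gene held 16 FLI1, 1 RUNX1 and 3 input reads. *Syk* held 80 FLI1, 4 RUNX1 and 2 input reads there, with ratios to input of 13.8 (3.70 to 116) for FLI1 and 10.9 (1.57 to 121) for RUNX1. *Vav1* held 102, 2 and 4 reads, *Lyn* 95, 4 and 6, *Fyn* 57, 1 and 3, *Lcp2* 56, 4 and 3, and *Btk* 42, 0 and 1. The number of FLI1 reads exceeded that of 92.4% of genes at *Gp6*, 89.5% at *Fcer1g*, 88.6% at *Vav1*, 87.5% at *Lyn* and 84.3% at *Syk*. It was between 70.7% and 77.3% at *Btk*, *Clec1b*, *Lcp2* and *Fyn*, and 51.6% at *Plcg2*. The *Lcp2* start, lowest of the set in the wide window, thus held an excess of FLI1 at its center. Its RUNX1 ratio to input there was 7.30 (1.23 to 49.8), on 4 RUNX1 reads. The RUNX1 intervals of members other than *Syk* and *Lcp2* included 1 in this narrow window.

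**Figure D1:**
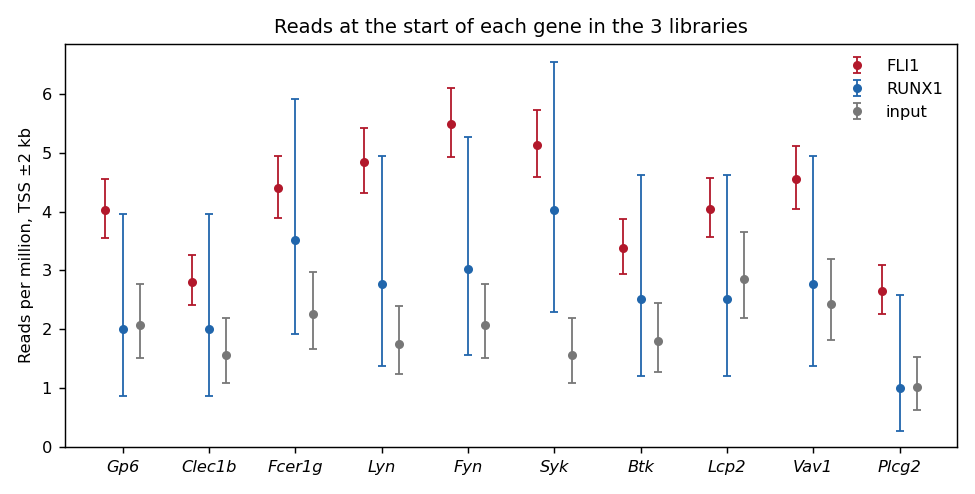
Reads scaled to depth (RPM) within 2 kb of the TSS of each member (vertical axis) in the FLI1 (red), RUNX1 (blue) and input (gray) libraries. Points are single libraries and bars are exact 95% intervals for counting error. FLI1 lay above input at all 10 genes, from 2.65 RPM at *Plcg2* to 5.50 RPM at *Fyn*, while the wide RUNX1 bars overlapped those of input at every gene except *Syk*.

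In order of FLI1 fold the members ran *Syk*, *Lyn*, *Fyn*, *Plcg2*, *Fcer1g*, *Gp6*, *Btk*, *Vav1*, *Clec1b* and *Lcp2*. The intervals of all neighbors in this order overlapped, and so did those of all neighbors in the RUNX1 order, so these counts do not settle the order of any neighboring pair. The threshold of 2 fell in a gap between *Plcg2* at 2.48 and *Fcer1g* at 1.91. For FLI1 a narrower window gave higher folds. Within 1 kb, 9 of 10 members were at 2-fold or more, all but *Lcp2* at 1.83-fold, beside 33.6% of all genes.

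**Figure D2:**
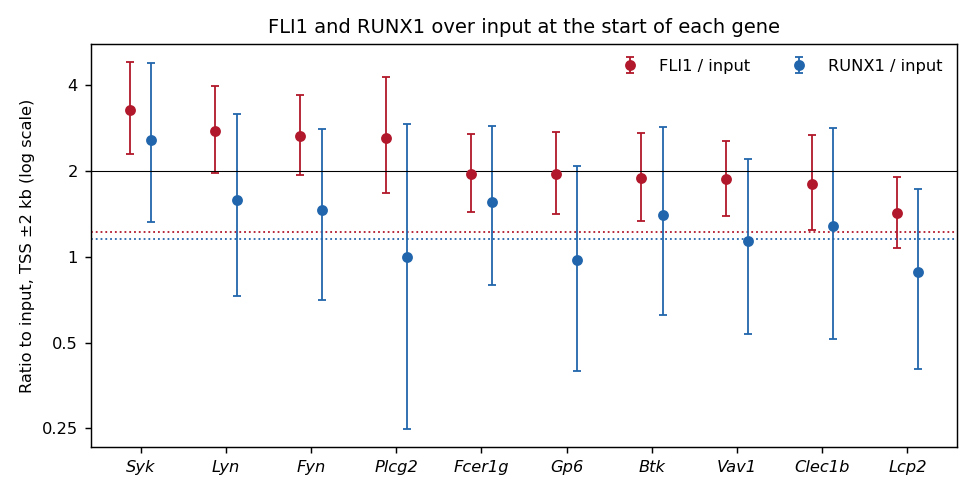
Ratio of FLI1 (red) and RUNX1 (blue) to input within 2 kb of the TSS, on a log axis, with the members ordered by FLI1 fold; no RPM were added to these ratios. Bars are exact 95% intervals, the solid line marks 2-fold and the dotted lines mark the median fold of all protein-coding genes, 1.23 for FLI1 and 1.15 for RUNX1. Most RUNX1 intervals span 1, and only that of *Syk* lies wholly above it.

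Over whole territories the picture changed. Of 2757 bins with reads in the 10 territories, 53 were called for FLI1 (at least 5 reads and 4-fold over the reference), a share of 1.92%, where 0.364% of all bins in the genome and 0.557% of bins near any protein-coding gene were called. RUNX1 was called in 21 bins, a share of 0.762%, against 0.303% of genome bins and 0.363% of bins near genes. A called FLI1 bin was present for 9 of 10 members, against 56.9% of protein-coding genes, and a called RUNX1 bin for 8 of 10, against 46.8%. A longer territory has more bins in which a call can fall, and these shares of genes are not matched for length. Only 10 of the 53 FLI1 bins lay within 2 kb of the member's TSS, 11 lay upstream and 32 downstream. These bins held 14.6% of all FLI1 reads of the territories.

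The receptors and their chain differed from each other in this view. *Gp6* had no called FLI1 bin in 156, though 1 was called with 200-bp bins and 2 with FLI1 thinned to the number of RUNX1 reads. Its TSS bin held 126 FLI1, 2 RUNX1 and 13 input reads, and 79.9% of the called FLI1 bins of the genome held fewer FLI1 reads, but the input was 3.56 times the mean bin, which left a fold of 3.35 and no call. The next highest *Gp6* bin held 23 FLI1 reads, so a single narrow peak of FLI1 reads was seen. Stretches of the gene held almost no reads in any library, among them the bins from 4.75 to 9.55 kb downstream of the TSS. FLI1 could not be read there, so other sites in the gene are not excluded. A RUNX1 bin was called 38.7 kb downstream of the *Gp6* TSS on 5 reads, beyond the end of the gene.

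*Clec1b* had 5 called FLI1 bins and 2 called RUNX1 bins that did not coincide. FLI1 sites lay at its own TSS with 49 reads within 200 bp of the summit, in an exon 8.88 kb downstream with 110, in the promoter of the neighbor *Clec9a* 10.3 kb downstream with 76, and 28.7 kb downstream with 267. The last and strongest site, with 2 RUNX1 and 2 input reads, fell in an untranslated part of *Clec1a*, another gene of the C-type lectin cluster on chromosome 6, and its FLI1 to input ratio was 46.1 (12.6 to 383).

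*Fcer1g* is a gene of 4.79 kb with 5 other genes in its territory, and it had 6 called FLI1 bins and no called RUNX1 bin. A site with 90 FLI1, 0 RUNX1 and 6 input reads lay at the promoter of the neighbor *Tomm40l*. Of the sites in *Fcer1g* itself, the intronic one shown above held 146 FLI1, 3 RUNX1 and 3 input reads, and the one at the TSS held 108, 3 and 3. Which gene a site acts on was not measured.

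*Lyn* and *Fyn* had 6 and 5 called FLI1 bins. The strongest *Lyn* site was upstream, at -18.0 kb from the TSS, with 211 FLI1, 3 RUNX1 and 7 input reads. Weaker *Lyn* sites held 99 FLI1 reads at the TSS, 91, 79 and 52 at 3.59, 4.97 and 7.24 kb and 94 at 73.0 kb, the last 4 in introns, and no *Lyn* bin was called for RUNX1. *Fyn*, the longest gene at 197 kb, had only weak sites of 45 to 84 FLI1 reads, 4 of 5 of them at promoters of its transcripts. Its whole territory had less FLI1 than input, at a ratio of 0.942 (0.903 to 0.984).

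*Syk* had 8 called FLI1 bins in 6 sites, 3 of them upstream. The strongest, at -5.64 kb from the TSS, held 191 FLI1, 1 RUNX1 and 6 input reads. Sites at the TSS and 2.10 kb downstream held 77 and 124 FLI1 reads, and those at -8.67 and -10.5 kb held 83 and 76. The only called RUNX1 bin, at -11.1 kb on 7 reads, was not called for FLI1, so the gene with the highest RUNX1 fold at its TSS had no bin called for both.

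*Btk* shares its territory with 4 other genes, and had 4 called FLI1 bins, none within 2 kb of its TSS. A pair of intronic sites 19.1 and 19.8 kb downstream held 125 and 61 FLI1 reads. The other sites lay at the promoters of *Rpl36a*, a ribosomal protein gene, with 95 FLI1, 3 RUNX1 and 2 input reads, and of *Hnrnph2* with 61. The bin at the *Rpl36a* promoter was also called for RUNX1, on 5 reads.

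*Lcp2*, with the lowest FLI1 fold within 2 kb of the TSS, had a strong intronic site. This site, 17.3 kb downstream, held 246 FLI1, 10 RUNX1 and 5 input reads, with ratios to input of 17.0 (7.19 to 52.8) for FLI1 and 10.9 (3.41 to 40.8) for RUNX1. Its top bin held 250 FLI1 reads, and 421 of 5946545 bins in the genome held more. At the TSS a second site held 87 FLI1, 4 RUNX1 and 6 input reads. *Lcp2* also had a run of RUNX1 bins 6.68 kb downstream without a FLI1 call, with 12 RUNX1 reads, 5 on the plus and 7 on the minus strand, beside 65 FLI1 and 6 input reads in the same 2 bins.

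*Vav1* carried the strongest site of the set. It lay 11.4 kb into the gene, in an intron, and held 444 FLI1, 11 RUNX1 and 3 input reads within 200 bp of the summit, with ratios to input of 51.1 (17.4 to 249) for FLI1 and 20.1 (5.30 to 112) for RUNX1. Its top bin held 405 FLI1 reads, and 28 bins in the genome held more. The run of called RUNX1 bins at the same place held 25 RUNX1 reads, 11 on the plus and 14 on the minus strand, and all 3 of its bins were called for both TFs. *Vav1* had 7 sites in all, with 125, 116 and 71 FLI1 reads at 7.97, 6.06 and 10.7 kb downstream, 102 at the TSS, and 62 and 98 upstream at -2.07 and -14.8 kb.

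*Plcg2*, the effector, had no called FLI1 site at its TSS and a series of sites inside the gene. Of its 7 sites 5 were intronic, with 93 FLI1 reads at 28.0 kb, 141 at 38.8 kb, 236 at 45.7 kb, 280 at 50.3 kb and 201 at 98.7 kb. Another site, upstream at -16.3 kb, held 195 FLI1 reads, and the last, past the end of the gene, held 46. RUNX1 was called at 3 of these sites: that at 45.7 kb held 10 RUNX1 and 9 input reads, that at 50.3 kb held 7 and 7, and that at 28.0 kb held 5 and 4. The sites at 98.7 and -16.3 kb held 1 RUNX1 read each.

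**Figure D3:**
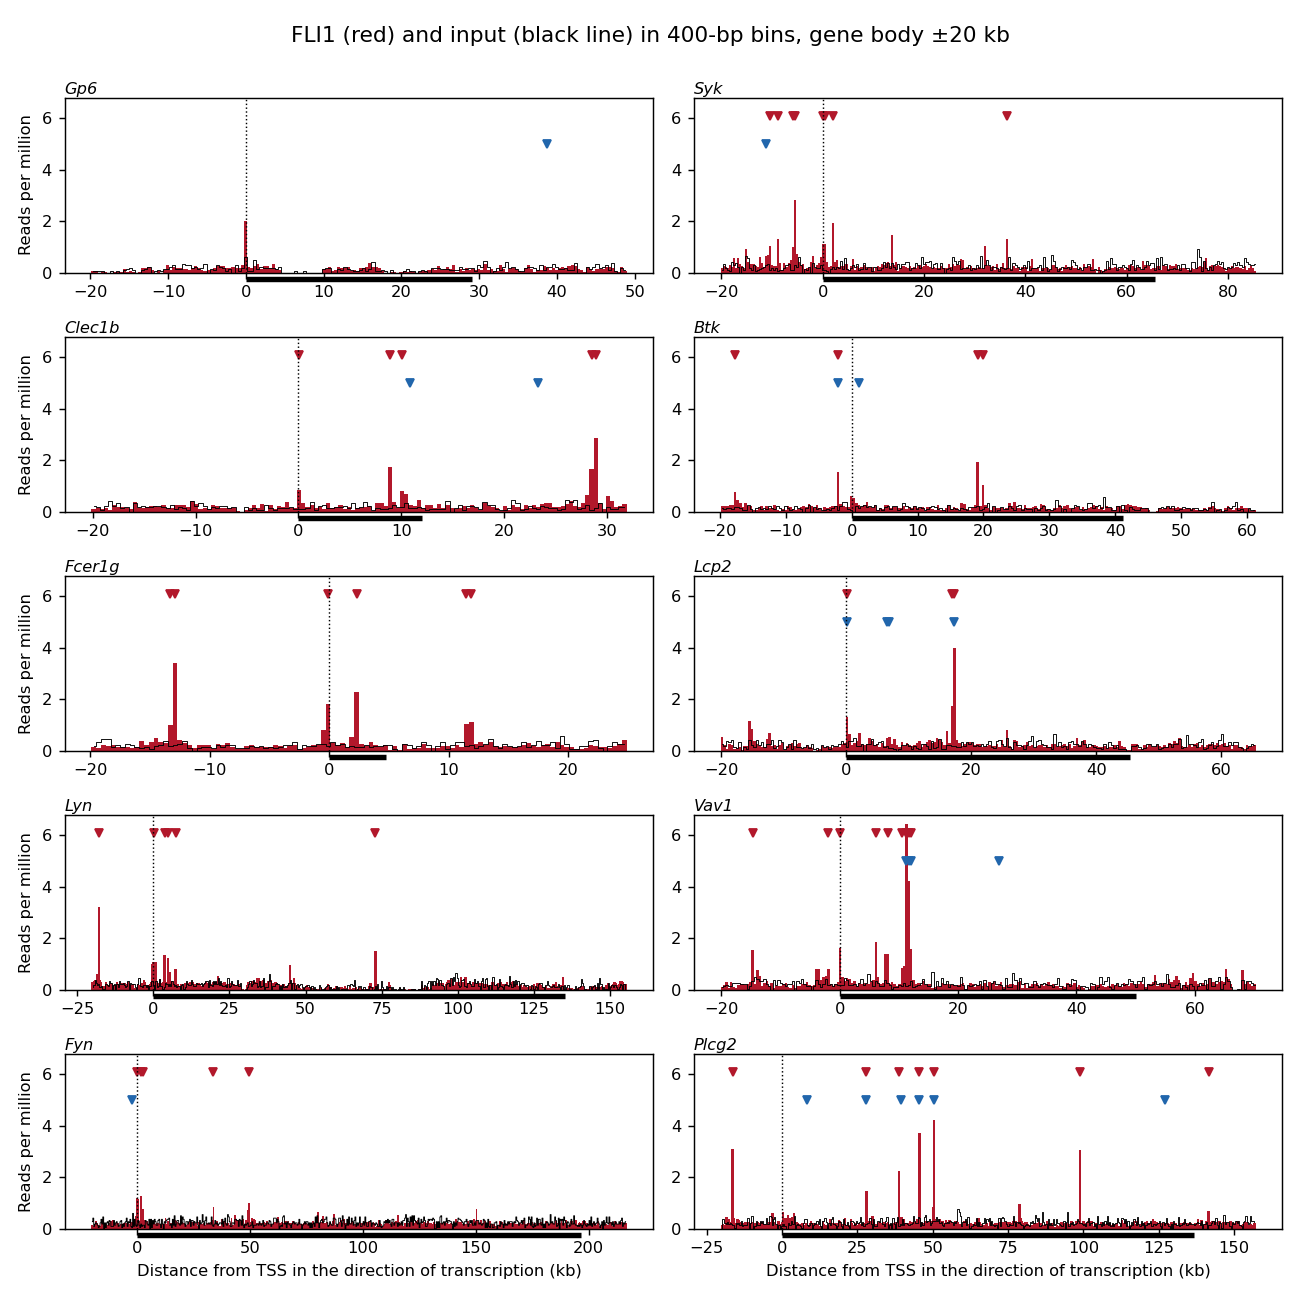
FLI1 (red) and input (black line) RPM in 400-bp bins against the distance from the TSS in kb, in the direction of transcription, with the gene body as a black bar. Red and blue triangles mark bins called for FLI1 and RUNX1. The peak of *Vav1* is the tallest, *Plcg2* has its tall bins away from the TSS, and *Gp6* has 1 tall bin at the TSS that was not called.

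Summed over whole territories, FLI1 exceeded input most at *Clec1b*, with 2147 FLI1, 124 RUNX1 and 493 input reads and a FLI1 ratio of 1.50 (1.36 to 1.66), and next at *Vav1* with a ratio of 1.47. The ratios were 1.42 at both *Btk* and *Fcer1g*, 1.26 at *Lcp2*, 1.19 at *Syk*, 1.16 at *Lyn* and 1.12 at *Plcg2*. *Gp6* was level with input at 1.03 (0.926 to 1.14). Over all 10 territories FLI1 was at 1.17 (1.15 to 1.20) and RUNX1 at 1.03 (0.985 to 1.08).

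Scaled by length, called FLI1 bins were densest around *Fcer1g*, with 13.4 per 100 kb, followed by *Vav1* with 9.98, *Clec1b* with 9.61 and *Syk* with 7.57, beside a median of 1.21 over all protein-coding genes. The densities of *Btk*, *Plcg2*, *Lcp2*, *Lyn* and *Fyn* ran from 4.92 to 2.11. In *Fcer1g*, *Clec1b* and *Btk* the count includes sites at neighboring genes. Among the 45 FLI1 sites, 11 lay at a promoter of the member itself, 5 at the promoter of another gene, 2 in exons, 19 in introns and 8 between genes, and the reads within 200 bp of the summit ran from 45 to 444 with a median of 94.

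ETS words were found within 50 bp of the summit at 23 of 45 sites, or 51.1% (35.8 to 66.3), against 63.0% of 17828 FLI1 sites across the genome and 11.9% of 11049 windows of the same length tiled through the territories. With the shorter spellings CGGAA or AGGAA, 40 of 45 sites had a word, or 88.9%, beside 88.7% of all FLI1 sites and 35.5% of the windows. RUNX words were at 7 of 45 sites, or 15.6% (6.49 to 29.5), against 18.0% and 9.05%. GATA words were at 9 of 45, or 20% (9.58 to 34.6), against 8.85% of all FLI1 sites and 5.57% of windows. They were at 2 sites each of *Clec1b*, *Fyn* and *Syk* and 1 each of *Fcer1g*, *Lyn* and *Btk*, and at 0 sites of *Lcp2*, *Vav1* and *Plcg2*. The NF-E2 word GCTGAGTCA was at 0 of 45 sites, which allows a share of up to 6.67% at a floor of 3 counts, beside 0.954% of all FLI1 sites. Words that reach into the outer 10 bp of the sequences printed above lie outside this window and were not counted.

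FLI1 and RUNX1 were called in the same bin in 9 bins of the territories, a share of 0.326% where that of the genome was 0.04%. This was 17.0% of the FLI1 bins of the set, against 11.0% in the genome, and 42.9% of its RUNX1 bins, against 13.2%. All 9 lay in the territories of *Vav1* and *Plcg2* with 3 each, *Lcp2* with 2 and *Btk* with 1. The 3 of *Vav1* were adjacent bins of a single site, so the bins are not independent. Bins called for FLI1 held 148 RUNX1 reads in 53 bins, 3.53 times (2.97 to 4.18) the rate of the other bins, while input was 0.842 times as high in them. Over the genome the same ratios were 3.39 for RUNX1 and 1.03 for input. A bin of high input is less likely to be called for FLI1, so the input ratio is partly set by the call.

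RUNX1 bins without FLI1 were the larger part. The 21 RUNX1 bins formed 18 runs, of which 7 lay on called FLI1 bins and 11 did not, the latter with 10 to 65 FLI1 reads. Each of the 11 rested on 5 to 12 RUNX1 reads, with the most at *Lcp2*, 6.68 kb downstream. Others lay at -2.06 kb from the *Fyn* TSS (6 RUNX1 and 1 input read), 1.11 kb after the *Btk* TSS (5 and 3), 26.9 kb into *Vav1* (5 and 5), and 8.41, 39.6 and 127 kb from the *Plcg2* TSS (5 to 6 RUNX1 and 3 to 5 input reads). The 2 of *Clec1b* both fell near starts of *Clec9a*. Reads of both strands were present in all 18 runs, although, where both ends of a fragment were read, 5 reads could come from as few as 3 fragments. Of the 18 runs, 9 rested on 5 reads. Background reads in that number would mostly fall on both strands too, so the strands do not tell these runs from background.

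The downstream genes had more RUNX1 reads in their FLI1 bins than the upstream ones, in a split that was chosen after these values were seen and is given as a description. *Btk*, *Lcp2*, *Vav1* and *Plcg2* held 92 RUNX1 reads in 23 FLI1 bins, or 4.0 per bin (3.22 to 4.91), with 9 bins called for both. For *Btk*, 5 of the 9 RUNX1 reads in its 4 FLI1 bins lay in the bin at the *Rpl36a* promoter. That bin was its only one called for both, and the intronic bins of *Btk* held 3 and 0 RUNX1 reads. *Clec1b*, *Fcer1g*, *Lyn*, *Fyn* and *Syk* held 56 in 30 bins, or 1.87 per bin (1.41 to 2.42), with 0 called for both. The first set also had more FLI1 in its bins, with a median of 103 reads against 76.5, and more input, with a mean of 4.39 reads against 3.20, so the level of FLI1 moved with the difference and its part was not tested. The median FLI1 bin held 3 RUNX1 reads in the first set and 2 in the second. Outside the FLI1 bins the sets held 0.776 and 0.818 RUNX1 reads per bin.

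By gene, the RUNX1 rate inside FLI1 bins over that outside was 5.49 (3.62 to 8.04) for *Plcg2*, 5.21 (2.79 to 8.96) for *Lcp2*, 4.71 (3.27 to 6.63) for *Vav1* and 4.39 (1.95 to 8.67) for *Btk*. It was 2.71 (1.34 to 4.93) for *Lyn*, 2.30 (1.34 to 3.72) for *Syk* and 2.18 (1.01 to 4.22) for *Fcer1g*. The rate ratio was 1.94 for *Clec1b* and 1.91 for *Fyn*. Their intervals began at 0.866 and 0.821, so equal rates inside and outside were not excluded for either gene. All intervals of these lower genes overlapped those of *Plcg2*, *Lcp2*, *Vav1* and *Btk*, so these counts do not separate the sets gene by gene. The *Btk* value includes the bin at the *Rpl36a* promoter, which held 5 of the 9 RUNX1 reads in its FLI1 bins. The members had 7 bins with over 200 FLI1 reads, which held 46 RUNX1 reads, or 6.57 per bin, and 5 of them were called for both. Such bins held 4.26 RUNX1 reads over the genome, and 33.1% were called for both. In bins of 101 to 200 FLI1 reads, the members held 2.0 RUNX1 reads per bin and the genome 2.77. The values were 2.43 and 2.06 in bins of 61 to 100 FLI1 reads, and 2.0 and 1.66 in bins with fewer.

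**Figure D4:**
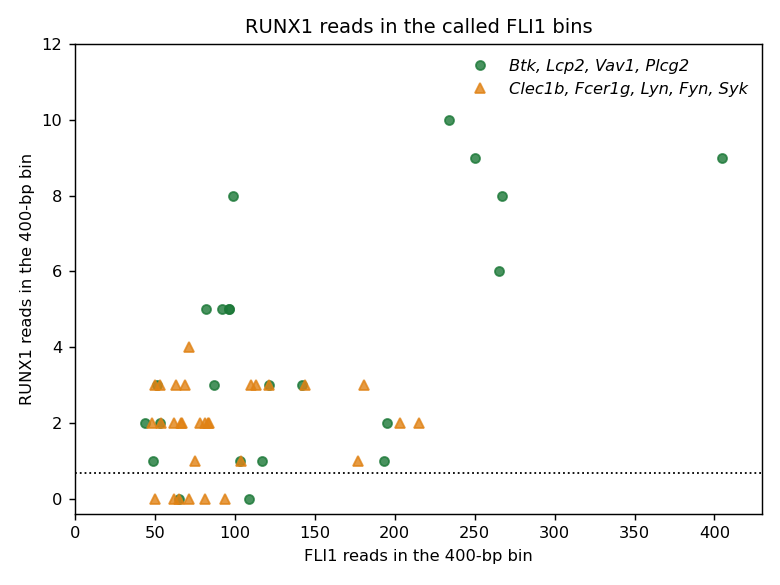
RUNX1 reads (vertical axis) against FLI1 reads (horizontal axis) in each of the 53 bins called for FLI1, with circles for *Btk*, *Lcp2*, *Vav1* and *Plcg2* and triangles for *Clec1b*, *Fcer1g*, *Lyn*, *Fyn* and *Syk*; the dotted line is the mean of 0.668 RUNX1 reads over all bins of the genome. All bins with 5 or more RUNX1 reads are circles, which follows from a split chosen after these values were seen. Most of those above 5 have over 200 FLI1 reads.

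The wider pathway, a list of 47 other genes, was read at the start sites alone. FLI1 was at 2-fold or more at 20 of 47 and RUNX1 at 8 of 47, with median folds of 1.78 and 1.33, near the medians of the 10 members, where 23.1% and 14.7% of all protein-coding genes were at that level. By role, the FLI1 counts were 10 of 17 effectors, 3 of 6 phosphatases, 2 of 3 co-receptors, 2 of 8 adaptors, 2 of 9 kinases and 1 of 4 ligand genes. The highest was *Pik3ca*, a catalytic subunit of phosphoinositide 3-kinase, with 505 FLI1, 7 RUNX1 and 28 input reads and a FLI1 fold of 5.85. It was followed by *Cbl*, a ubiquitin ligase adaptor, with 300, 12 and 18 reads and a fold of 5.25, and by the small GTPase gene *Rac1* with 406, 10 and 25 reads and a fold of 5.24. Input was low at all of them, above that of 18.6% of genes at *Pik3ca*, 7.26% at *Cbl* and 13.7% at *Rac1*.

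The gene with the lowest FLI1 fold was *Zap70*, the T-cell counterpart of SYK, which held 114 FLI1, 2 RUNX1 and 58 input reads, a FLI1 fold of 0.691, against 3.14 at *Syk*. The median gene held 133 FLI1 reads. Input was above that of 91.9% of genes at *Zap70* and 32.9% at *Syk*, and its part in these folds was not tested. The collagen gene *Col1a1* held 122, 6 and 49 reads and a fold of 0.866. The other collagen genes of the list, named after their values were seen, were at 1.03 (*Col1a2*) and 2.09 (*Col3a1*).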

How the data were processed

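The deposited files give the chromosome, start, end and strand of each read; per the methods, the authors aligned reads to mm9 using Bowtie (version not given in the sources used here) and kept uniquely mapped, non-redundant reads. The deposited reads are 50 bp long for FLI1 and RUNX1 and 34 bp for the input, whose file is in another format, and its alignment was not checked here. Both ChIP files hold each position once, whereas 3.24% of the deposited input reads repeated a position and were reduced to 1. Counts were made here from these positions. Reads were moved 75 bp toward the fragment center for fragments of 150 bp, the length in the methods, and divided by the nuclear reads of the library. Genes and start sites came from GENCODE M1 on mm9. Sites are runs of called FLI1 bins, and their summits are the highest point of reads extended to 150 bp. Ratios have exact conditional binomial intervals, counts exact Poisson and shares Clopper-Pearson intervals, at 95%. Scripts were tested on simulated data and run with Python 3.11.15, numpy 2.4.6, scipy 1.17.1 and pandas 2.3.3. All members are named, as are the 3 highest and 3 lowest genes of the wider list and genes whose start or body lay at a called bin, except for results that are not reported here. Members and lists were chosen with earlier results of these data known. MACS peaks, NF-E2 and H3K4me2 were not used here.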

Additional observations from a re-analysis of the deposited data

How the results depend on the processing

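Folds of single members at the TSS moved outside their counting interval in 7 cases, 5 with the gene's own flanks as reference and 2 with the window of 1 kb. Counts depended more on the settings. Members with FLI1 at 2-fold or more went from 4 to 9 within 1 kb (33.6% of all genes), 2 over their own flanks (*Fyn* at 2.60 and *Gp6* at 3.61, with *Lyn* at 1.63, *Syk* at 1.34, *Plcg2* at 1.05 and *Vav1* at 1.02, beside 20.5% of all genes), 9 at a threshold of 1.5 (37.9%), 1 at a threshold of 3 (7.89%) and 8 after random thinning of FLI1 reads to as many as RUNX1 had (24.8%). For RUNX1 they went from 1 to 3 within 1 kb (25.7%), 2 at the highest transcript start (17.0%), 0 over the flanks (13.9%), 3 at 1.5 (31.5%) and 0 at 3 (3.19%). Wider pathway genes with FLI1 went from 20 to 35 at 1.5 and 7 at 3. Called FLI1 bins went from 53 (1.92% of bins, genome 0.364%) to 109 with 200-bp bins (2.02%, genome 0.376%). At 8-fold there were 22 (0.798%, genome 0.102%). With the mean input alone as reference, a setting chosen after seeing the data, there were 81 (2.94%, genome 0.574%). *Gp6*, with 0 called FLI1 bins, had 1 under that setting and with 200-bp bins, and 2 with FLI1 thinned or with 50 kb on either side of the gene. RUNX1 bins went from 21 (0.762%, genome 0.303%) to 11 with 200-bp bins (0.203%, genome 0.0475%) and 7 at 8-fold (0.254%, genome 0.0573%). A minimum of 4 reads gave 56 (2.03%, genome 1.01%) and a minimum of 7 gave 7 (0.254%, genome 0.034%). Bins called for both went from 9 to 3 at 8-fold and 5 with a minimum of 7 RUNX1 reads. Sites with an ETS word went from 23 of 45 to 40 of 45 with the shorter spellings and 11 of 19 at 8-fold. The cause of these moves was not tested. No paired analysis was possible because each antibody has only 1 library. At the RUNX1 depth the median gene holds 8 reads within 2 kb of its TSS, and a bin needs at least 5, so RUNX1 at weaker sites was not detectable.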
